A study of Mus musculus with 2 samples.

Results

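Trp63 encodes p63, the transcription factor that sets up and keeps the identity of stratified epithelia. It was examined with 7 other genes of epidermal identity (Perp, Tfap2a, Tfap2c, Satb1, Sfn, Klf5 and Ets1) in epidermal keratinocytes carrying constitutively active Smad1. The genes were chosen by name: every gene spot whose file name was a member's name was taken, and the spots named Tcfap2a and Tcfap2c, the older symbols of Tfap2a and Tfap2c, were assigned by their accessions. This gave 18 probes of 8 genes, 15 probes of 6 genes by the name in the files and 3 probes of 2 genes by accession, out of 41174 probes and 27975 gene names on the array.

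The RNA came from primary keratinocytes of the epidermis of K14-caSmad1 mice and of wild-type mice, all FVB/NJ and at day 20 after birth. K14-caSmad1 mice overexpress a constitutively active Smad1, a transcription factor that carries bone morphogenetic protein (BMP) signals to the nucleus. K14 is the usual shorthand for the keratin 14 promoter, which drives expression in basal keratinocytes; the labels do not describe the construct, the number of founder lines, the number of animals per RNA sample or their sex. Each of 2 two-colour arrays with probes of 60 bases compared K14-caSmad1 RNA in Cy5 with wild-type RNA in Cy3, on 1 slide and without a dye swap, so genotype and dye cannot be told apart for a single probe. In RNA from a mixed preparation, fewer cells of a type and less RNA per cell cannot be told apart either.

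In the epidermis p63 is highest in the basal layer, where it acts on genes for keratins, hemidesmosomes and desmosomes and on further regulators. Trp63 is transcribed from alternative starts and spliced to alternative ends, giving isoforms with and without the N-terminal transactivation domain. Perp is a desmosomal membrane protein and a direct p63 target, AP-2 alpha and AP-2 gamma (Tfap2a, Tfap2c) are regulators of epidermal gene expression, and Satb1 is a chromatin organiser that p63 controls in epidermal progenitors. Sfn encodes 14-3-3 sigma, a cell cycle inhibitor of differentiating keratinocytes, Klf5 a factor of proliferating epithelial cells and Ets1 a factor of the ETS family.

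The probes of Trp63 and Sfn are shown because probes of these genes differed from each other in sign or size. They are given as the scanner files hold them, on mm9. The stretches of 60 bases are whole probes and those of 30 bases are the first part of a probe.
Trp63 A_51_P216550, chr16:25892012-25892071, plus strand, first 30 bases: caaaaggtactttcttatagacatgatact
Trp63 A_52_P338796, chr16:25867718-25867777, plus strand, first 30 bases: cagtcccatataccatgcacttaactcttt
Trp63 A_52_P17264, chr16:25865388-25866165, plus strand, 60 bases: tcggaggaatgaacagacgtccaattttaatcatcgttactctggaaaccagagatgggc
Sfn A_52_P334188, chr4:133156999-133157058, minus strand, 60 bases: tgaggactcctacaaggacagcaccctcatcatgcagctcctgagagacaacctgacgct
Sfn A_52_P334191, chr4:133157200-133157259, minus strand, 60 bases: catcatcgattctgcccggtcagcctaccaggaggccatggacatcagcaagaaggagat
Sfn A_51_P213940, no position in the files, first 30 bases: ggattttgcctttcccaaaccctgaatgtt
Trp63 A_51_P216550 and A_52_P17264 come from the RefSeq transcript NM_011641, at its bases 4497 and 773, and A_52_P338796 from the cDNA AK048623. A_52_P17264 spans 778 bases of genome for its 60 bases and therefore crosses at least 1 intron. A_52_P338796 lies 1553 bases after its end and 24294 bases before A_51_P216550. No Ensembl transcript was listed in the files for 2 or more of them (0 transcripts). Which exons they lie in is not analysed here.

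Of the 18 member probes, 11 were well above background in all 4 channels and 7 were too dim to be tested. Trp63 A_51_P216550 was higher in K14-caSmad1 keratinocytes, the AK048623 probe of Trp63 was lower, and Perp, Tfap2c and Satb1 were higher. Tfap2a, Klf5 and all 3 Sfn probes were lower, and Ets1 was slightly higher. A probe was called different where its log2 ratio had the same sign and a size of 1 or more on each array: of the 11 tested member probes, 2 were higher and 1 was lower, beside 3.79% higher and 9.48% lower among all 15110 tested probes (13.3% in either direction). All 11 also had a limma adjusted p under 0.05 (moderated test, Benjamini-Hochberg over all tested probes), but so did 86.6% of all tested probes and 87.1% of measured genes. That test measures how well the arrays repeat and not the error between animals. The labels call the arrays biological replicates. Over 12287 probes with 1 spot they differed by an SD of 0.09 log2 units where repeated spots of 1 array predict 0.11, although over the means of 94 repeated probes they differed by 0.05 where 0.03 was predicted. Since the first comparison shows no spread beyond spot noise and the second a little, the arrays were, as a cautious choice, counted as 1 sample, and the SDs below cover the difference between arrays only. Where groups are said below not to overlap, the share of all tested probes for which this holds was not counted. With arrays this alike (Pearson r of 0.99 over tested probes), such a separation only describes the 4 values of a probe. It is not read as a trait of the members, and it says nothing about the spread between animals.

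**Figure D1:**
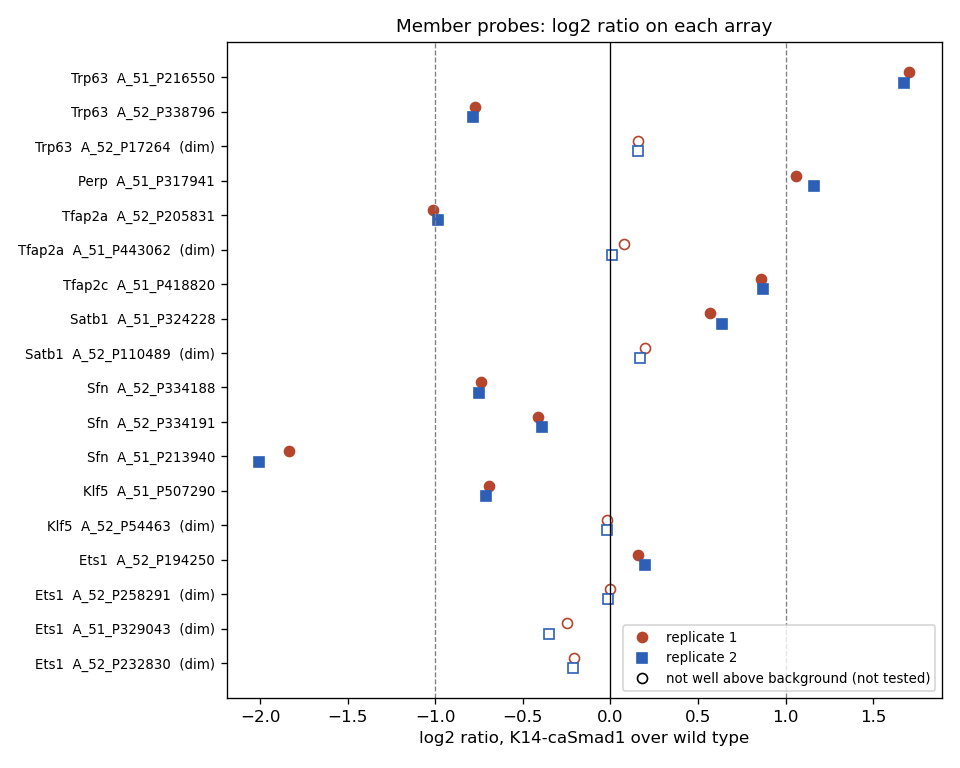
Log2 ratio of K14-caSmad1 over wild type for each of the 18 member probes on replicate 1 (circles) and replicate 2 (squares); open symbols are probes too dim to be tested, and dashed lines mark 2-fold. Trp63 A_51_P216550 and Perp lie above the upper line on both arrays and Sfn A_51_P213940 below the lower line on both, while Tfap2a straddles it.

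Trp63 A_51_P216550, the most downstream of the Trp63 probes, read 25046.2 and 23536.3 units of normalised intensity in K14-caSmad1 keratinocytes on replicates 1 and 2, against 7668.2 and 7364 in wild-type keratinocytes. Both K14-caSmad1 values lay far above both wild-type values. The log2 ratio was 1.69 ± 0.02 (SD, n = 2 arrays), a 3.23-fold higher level (limma adjusted p = 3.94e-05), and 99.7% of the tested probes had a lower ratio.

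The AK048623 probe of Trp63 (A_52_P338796) went the other way. It read 725.9 and 658.5 in K14-caSmad1 keratinocytes and 1239.5 and 1131.9 in wild-type keratinocytes, and the groups did not overlap. Its log2 ratio was -0.78 ± 0.01 (SD, n = 2 arrays; limma adjusted p = 9.92e-05), a 1.71-fold difference that did not reach 2-fold. The intron-crossing probe A_52_P17264 read 401.1 and 389 in K14-caSmad1 keratinocytes and 359.9 and 348.3 in wild-type keratinocytes, and was not well above background in any channel.

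The tested Trp63 probes thus differed by 2.47 log2 units (2.48 on replicate 1 and 2.46 on replicate 2). Among 2820 genes with several tested probes the median spread was 0.44, and 28 genes (0.993%) had a spread as large as that of Trp63. A probe above 0.5 beside another below -0.5, as for Trp63, was seen in 70 of these genes. Probes of the same accession were also compared by position, over 2199 accessions with several tested probes. The most downstream probe exceeded the most upstream one by a median of 0.07 log2 units, and was higher in 55.0%. The median distance was 724 bases. The tested Trp63 probes come from different accessions, so this comparison does not cover them. The reason for the difference between the Trp63 probes was not tested.

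Perp, which builds desmosomes, was higher. Its probe (A_51_P317941, chr10:18576697-18576756) read 144060 and 132228.3 in K14-caSmad1 keratinocytes and 69174.3 and 59000.8 in wild-type keratinocytes. The groups did not overlap. The log2 ratio was 1.11 ± 0.08 (SD, n = 2 arrays), a 2.16-fold higher level (limma adjusted p = 0.000109).

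The AP-2 factors differed in opposite directions. Tfap2a, which encodes AP-2 alpha (A_52_P205831, chr13:40812207-40812266, minus strand), read 1125.8 and 966.3 in K14-caSmad1 keratinocytes and 2270.9 and 1914.8 in wild-type keratinocytes, a log2 ratio of -0.999 ± 0.02 (SD, n = 2 arrays; limma adjusted p = 7.29e-05). It straddled the 2-fold threshold and was not called, at -1.01 on replicate 1 and -0.99 on replicate 2. Tfap2c, which encodes AP-2 gamma (A_51_P418820, chr2:172383860-172383919), read 12592.7 and 11110.6 in K14-caSmad1 keratinocytes and 6935.9 and 6069.5 in wild-type keratinocytes, a log2 ratio of 0.87 ± 0.01 (SD, n = 2 arrays; limma adjusted p = 8.39e-05). Neither pair of groups overlapped. The other Tfap2a probe (A_51_P443062) was dim in all channels, with 153 and 158.8 in K14-caSmad1 keratinocytes and 144.9 and 157.9 in wild-type keratinocytes.

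Satb1, the chromatin organiser, was moderately higher. Its tested probe (A_51_P324228, chr17:51879137-51879196, minus strand) read 2302.6 and 2051 in K14-caSmad1 keratinocytes and 1554.6 and 1319.3 in wild-type keratinocytes. The groups did not overlap, and the log2 ratio was 0.60 ± 0.05 (SD, n = 2 arrays; limma adjusted p = 0.000269). Its second probe (A_52_P110489, from the cDNA AK040502) was dim.

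All 3 probes of Sfn, the 14-3-3 sigma gene, were lower in K14-caSmad1 keratinocytes, by unequal amounts. A_52_P334188 read 8380.9 and 6954.3 in K14-caSmad1 keratinocytes and 13957.4 and 11681.4 in wild-type keratinocytes, a log2 ratio of -0.74 ± 0.01 (SD, n = 2 arrays). A_52_P334191 read 4745.4 and 3929.3 in K14-caSmad1 keratinocytes and 6320.9 and 5156.7 in wild-type keratinocytes, a log2 ratio of -0.40 ± 0.02 (SD, n = 2 arrays). On each of these the K14-caSmad1 values lay below the wild-type values. Under other processing settings A_52_P334191 stayed below 0 but moved, from -0.427 with offset 16 to -0.105 with median centring. A_51_P213940, read from the accession AF058798 and without a position, showed 1067.4 and 960 in K14-caSmad1 keratinocytes and 3807 and 3850.1 in wild-type keratinocytes, a log2 ratio of -1.92 ± 0.12 (SD, n = 2 arrays). The spread of 1.52 among the Sfn probes was matched or passed by 147 of the 2820 genes (5.21%).

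Klf5, a factor of proliferating epithelial cells, was lower and Ets1 slightly higher. The Klf5 probe A_51_P507290 (chr14:99702656-99712388, which spans 9733 bases for 60) read 7436.2 and 6324.6 in K14-caSmad1 keratinocytes and 12037.5 and 10359.8 in wild-type keratinocytes, a log2 ratio of -0.70 ± 0.01 (SD, n = 2 arrays; limma adjusted p = 0.000121). The Ets1 probe A_52_P194250 (chr9:32564860-32564919) read 763.6 and 719.7 in K14-caSmad1 keratinocytes and 685.9 and 628.1 in wild-type keratinocytes, a log2 ratio of 0.18 ± 0.03 (SD, n = 2 arrays; limma adjusted p = 0.0057). The groups of both genes did not overlap, though with arrays this alike a difference as small as that of Ets1 is enough for this. The Ets1 value moved between settings, to 0.40 with processed signals or deposited ratios and 0.43 with median centring. The second Klf5 probe was well above background on 1 of 2 arrays and stood at -0.02. The 3 other Ets1 probes were dim, between -0.30 and -0.01, and of these A_51_P329043 and A_52_P232830 share 50 bases of genome in which their sequences differ at 4 bases.

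**Figure D2:**
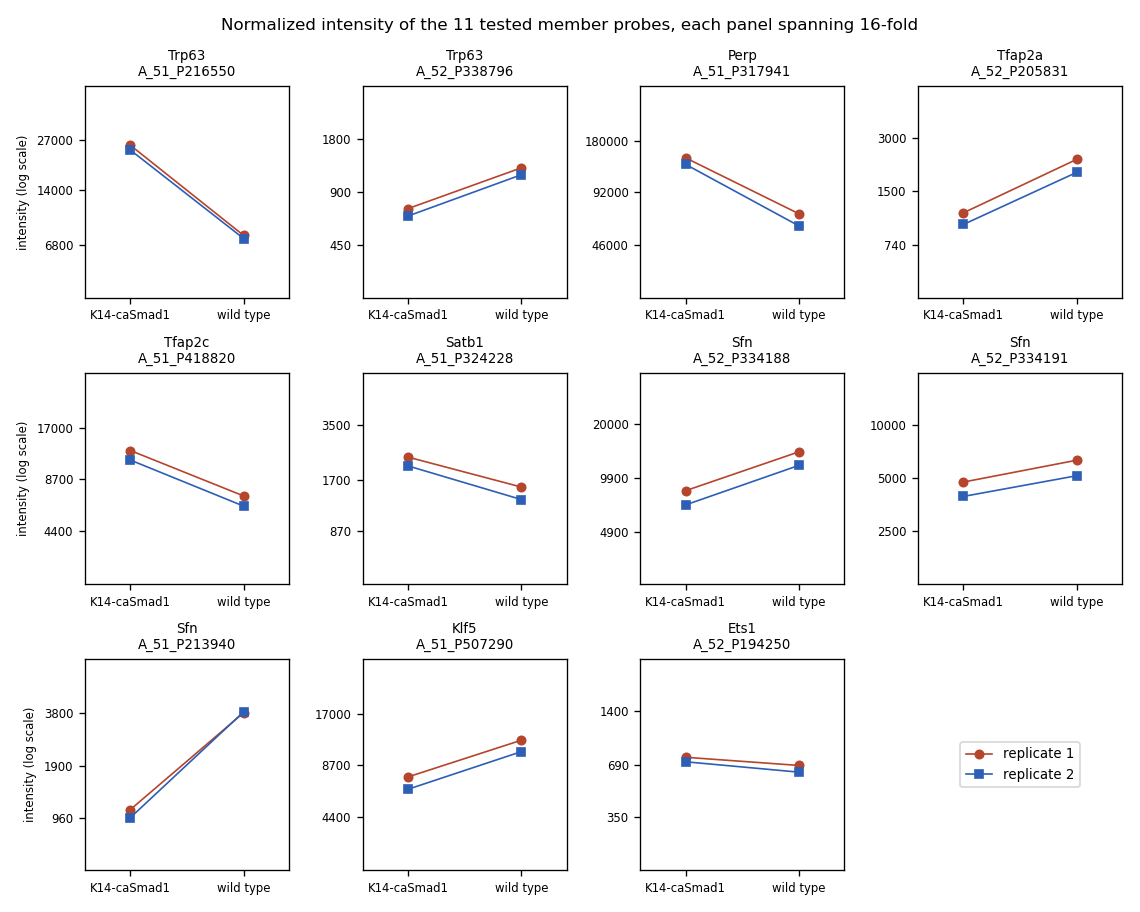
Normalised intensity (log axis, each panel covering 16-fold) of the 11 tested member probes in K14-caSmad1 (left) and wild-type (right) keratinocytes, with a line for each array. Trp63 A_51_P216550, Perp, Tfap2c, Satb1 and Ets1 fall to the right; the other probes climb to the right.

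**Figure D3:**
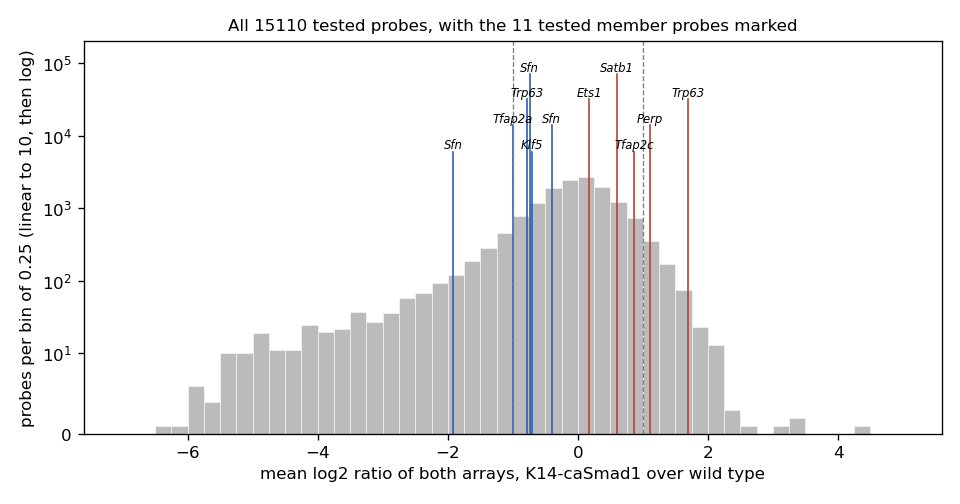
Mean log2 ratio of all 15110 tested probes in bins of 0.25 (vertical axis linear to 10, then log), with the 11 tested member probes marked by gene. The members spread over both sides, from -1.92 (Sfn) to 1.69 (Trp63), around an overall median of -0.02.

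Genes known as p63 targets were taken from lists put together for this comparison. The lists were not sorted by whether p63 activates or represses a gene, so their medians are not read as a measure of p63 activity. Of 18 genes for basal keratins and adhesion, 14 were measured, and 10 lay above 0 and 4 below, of which Lama3 turned positive (up to 0.20) under some other processing settings. Of these 14, 3 were higher and 1 lower at least 2-fold on both arrays, beside 4.08% and 9.81% of all 11752 measured genes (13.9% in either direction). The median log2 ratio was 0.68, against -0.03 over all measured genes. The share of all measured genes above 0 was not counted, for this list or those below. Krt5, a keratin of basal cells, stood at 1.70, Itga6, the alpha subunit of the hemidesmosome integrin, at 1.5 and Krt14, the partner of Krt5, at 1.07. The other genes at the top were the desmosome plaque gene Dsp at 1.09, which missed the threshold on replicate 1 (0.90), and the integrin gene Itgb1 at 0.82. At the bottom were Cldn1 at -1.02, a tight junction gene, Itga3 at -0.56, Evpl at -0.34, Lama3 at -0.11 and Dst at 0.09. Other probes of several of these genes read differently, such as 0.25 for Cldn1, 0.15 for Itga3, -1.76 for Evpl, 0.74 for Dst and 0.03 for Dsp. A further Dsp probe read 0.75 but was dim in wild-type keratinocytes. Cdh3, Dsc3, Dsg3 and Fras1 were not measured.

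Of 24 regulators and signalling genes among p63 targets, 19 were measured, 15 above 0 and 4 below. Their median was 0.42, against -0.03 over all measured genes. Of these, 2 (Chuk and Hells) were measured through the K14-caSmad1 channel alone, so they could hardly fall below 0. With both channels above background the median was 0.33. At least 2-fold on both arrays, 3 of the 19 were higher and 2 lower, beside 4.08% and 9.81% of all measured genes. Fgfr2, a growth factor receptor of the epidermis, stood at 1.47 and Gata3, a transcription factor of skin and hair follicles, at 1.41. Also among the highest were Dlx5 at 0.81 and the kinase gene Chuk at 0.81, which was well above background in wild type on 1 of 2 arrays. At the bottom were the homeobox gene Dlx3 at -1.23 and the BMP ligand gene Bmp7 at -1.05, then the chromatin remodeller Smarca4 at -0.66, Egfr at -0.66 and Cdkn1a at 0.07. Here too probes of a gene disagreed: Fgfr2 also read -0.16 at a probe above background in K14-caSmad1 on 1 of 2 arrays, Smarca4 0.96 and Bmp7 -1.49, and the 5 Egfr probes ran from -0.89 to 0.47. Dlx6, Hes1, Igfbp3 and Runx1 were not measured.

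**Figure D4:**
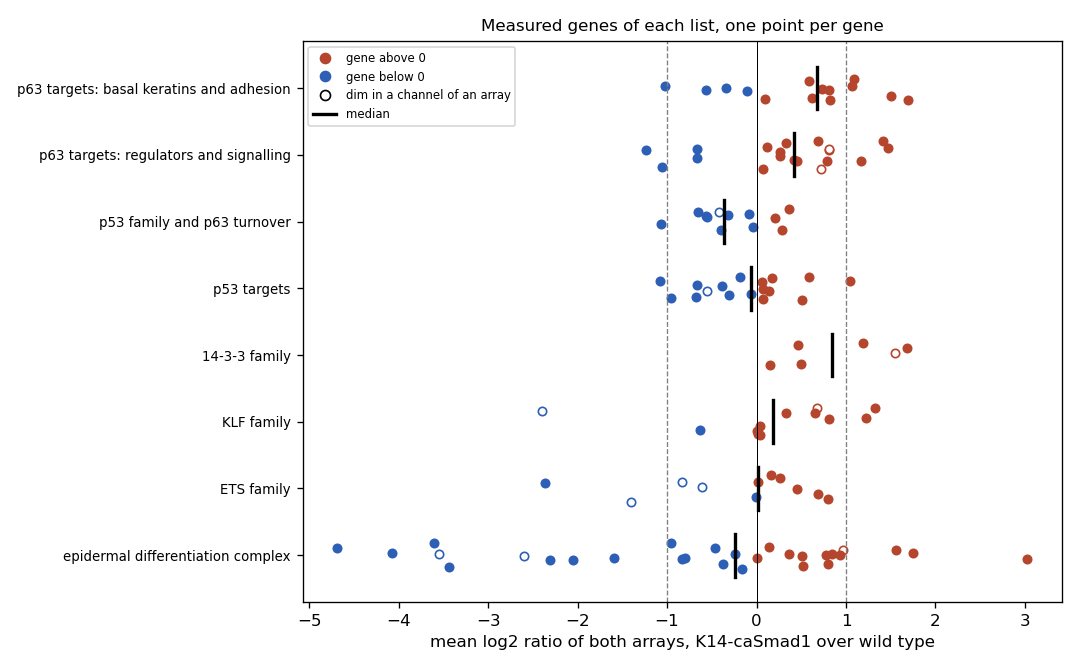
Mean log2 ratio of each measured gene in the p63 target lists, the p53 lists, the families of the members and the epidermal differentiation complex; black bars are medians, open symbols genes dim in a channel of an array, and dashed lines 2-fold. The p63 target and 14-3-3 medians (0.68, 0.42 and 0.84) lie right of 0, those of the p53 lists and the epidermal differentiation complex left of it (-0.36, -0.06 and -0.24), the p53 target median turning to 0.20 and that of the complex to 0 with median centring.

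Genes of the p53 family and of p63 turnover lay mostly below 0. Of the relatives of p63, Trp73 stood at 0.29. Trp53 stood at -0.42, at a probe above background in K14-caSmad1 keratinocytes on 1 of 2 arrays. Since its side of 0 was nearly fixed by the filter, these values do not show that the relatives differ in direction. Of 12 genes of the p53 family and of p63 turnover, 3 were above and 9 below 0 (Mdm4 and Hipk2 changed sign under some processing settings). At least 2-fold, 0 were higher and 1 was lower, beside 4.08% and 9.81% of all measured genes. Trp53 and Mdm2 were measured through the wild-type channel alone, so they could hardly be higher. Against -0.03 over all measured genes, the median of the list was -0.36. That median was -0.25 without background subtraction, -0.21 with normexp on all spots, -0.20 with both channels above background or averaged probes per gene, and -0.06 with median centring, and the call was lost (0) in each of these settings except that with both channels above background. The lowest was Ppp1r13b, a p53-binding protein gene, at -1.07, whose other probe read -0.20, and the highest was Itch, the ubiquitin ligase that marks p63 for degradation, at 0.36. Of 20 p53 targets 17 were measured. At their brightest probe 0 passed 2-fold on both arrays in either direction (up to 2 in other settings), beside 13.9% of all measured genes. The median of -0.06 became 0.20 when arrays were centred on their median in place of loess. It became 0.05 without background subtraction or with normexp on all spots. Pmaip1, a cell death gene, stood highest at 1.04 and Btg2, an antiproliferative gene, lowest at -1.08, each past 2-fold on 1 of 2 arrays. Other Btg2 probes read -1.56, past 2-fold on both arrays, and -0.20.

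Among family members of the other genes, all 6 further 14-3-3 genes measured were above 0, opposite to Sfn. Their median was 0.84, against -0.03 over all measured genes, and they stayed above 0 in all 6 other background and scaling settings tried. Of these, Ywhah at 1.68, Ywhaz at 1.55 and Ywhag at 1.19 were higher at least 2-fold, beside 4.08% of all measured genes. Only 1 passed with normexp on all spots, and 2 without background subtraction, with both channels above background (median 0.49) or with probes averaged per gene. Ywhab at 0.15 was the lowest of the family, with -0.29 at its other probe. Ywhaz was well above background in wild type on 1 of 2 arrays. It was thus measured through the K14-caSmad1 channel alone and could hardly fall below 0. Of 16 other KLF genes 12 were measured, 2 higher and 1 lower at least 2-fold, beside 4.08% and 9.81% of all measured genes. The KLF median was 0.19. The median was 0.49 without replicate 1, 0.48 with median centring, and 0.74 with processed signals or deposited ratios, where 5 passed 2-fold. Klf10 stood at 1.32 and Klf4, a factor of barrier formation, at 1.22. Klf2 was measured through the wild-type channel alone at its brightest probe, so that probe could hardly be higher. That probe was not well above background in K14-caSmad1 keratinocytes and was at least 4.22-fold lower, while the other Klf2 probe read 0.45.

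Of 25 further ETS genes 11 were measured, with a median of 0.02 (0.28 with median centring). At least 2-fold, 0 were higher and 2 lower, beside 4.08% and 9.81% of all measured genes. The 2 lower were Elf5 at -2.36, and Ehf, which was at least 2.23-fold lower and dim in K14-caSmad1 keratinocytes. Ehf, Etv4 and Etv6 were measured through the wild-type channel alone, so they could hardly be higher. The genes past 2-fold numbered 5 with processed signals or deposited ratios, 3 with median centring, and 1 without background subtraction, with normexp on all spots or with both channels above background. Elf1 was the highest at 0.80. In the AP-2 family, Tfap2b was dim in wild-type keratinocytes, so it could hardly fall below 0, and was at least 1.39-fold higher. Tfap2e read -0.06 at 1 probe and -2.32 at another that was above background in K14-caSmad1 keratinocytes on 1 of 2 arrays. Tfap2d was not measured.

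The epidermal differentiation complex is the gene cluster of the cornified envelope, which p63 and Satb1 act upon. Of 33 listed genes 29 were measured, 3 higher and 9 lower at least 2-fold, beside 4.08% and 9.81% of all measured genes. The median of the complex was -0.24 (0 with median centring). Hrnr stood at 3.03, Flg2 at 1.75 and Lce1m at 1.56. The lowest were Tchh, a hair follicle sheath protein gene, at -4.69, S100a3, a hair cuticle gene, at -4.07 and Sprr2h at -3.61. Lower too were Lce3c at -3.44, Sprr1b at -2.31, Sprr2a1 at -2.05, whose other probe read 1.10, and Sprr2b at -1.59. S100a9 stood at -3.55 and was above background in K14-caSmad1 keratinocytes on 1 of 2 arrays, and S100a8 was at least 4.77-fold lower. Both S100a9 and S100a8 were measured through the wild-type channel alone, so they could hardly be higher.

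Markers of cell types moved beside these results. All 13 measured markers of the hair shaft and inner root sheath were lower at least 2-fold, beside 9.81% of all measured genes. The summed intensities of this list were 114513 and 110473 in K14-caSmad1 against 1861230 and 1928270 in wild-type keratinocytes. Of 10 keratinocyte markers, 5 of them also p63 targets, 4 were higher at least 2-fold, beside 4.08% of all measured genes. Of the 10 markers, 9 lay above 0. Cdh1 stood at -0.89, but was measured through the wild-type channel alone, so it could hardly be higher. Probes disagreed for Krt10 (0.02 at the brightest and 2.29 at another) and Col17a1 (0.73 and -0.11). The sums of the keratinocyte markers were 774724 and 807647 in K14-caSmad1 against 460588 and 433055 in wild-type keratinocytes. The other lists were T cell markers (11 of 12 measured, median 0.26, Cd3e dim), Langerhans cell markers (8 of 8, 0.08), melanocyte markers (8 of 10, 3 lower), fibroblast markers (5 of 9, 3 lower) and endothelial markers (3 of 11). Of these last 3 lists, 5 melanocyte, 4 fibroblast and all 3 endothelial genes were measured through the wild-type channel alone, so they had to be lower, and with such genes at their bounds the medians were -0.87 for melanocyte and -1.07 for fibroblast markers. All 3 fibroblast calls (Col1a1, Col1a2 and Col3a1) were among them. The part of these shifts in the values of Trp63 and the other members was not tested.

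**Figure D5:**
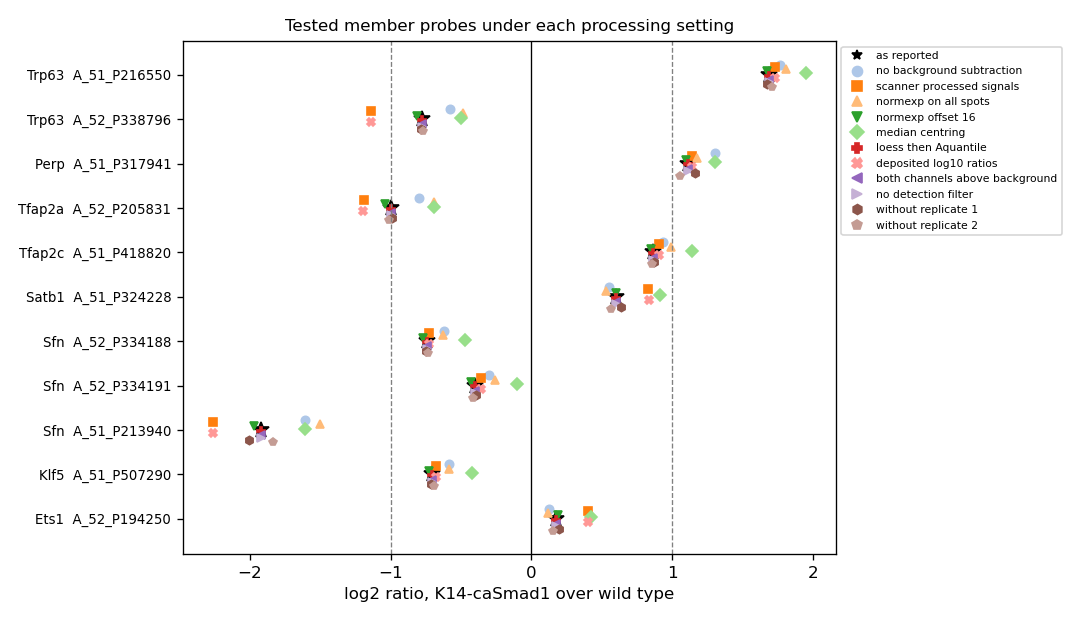
Log2 ratio of each tested member probe as reported (star) and under the 11 other processing settings (coloured symbols), with dashed lines at 2-fold. Every probe keeps its side of 0, though Aquantile and the changes of detection filter leave the ratios as reported. The downstream Trp63 probe stays between 1.68 and 1.96 and the AK048623 probe between -1.14 and -0.49.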

How the data were processed

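The deposited scanner files hold mean signal and median local background intensity per spot and channel without normalization, processed signals and flags, written by Agilent Feature Extraction 10.5.1.1, with positions on mm9, per the file headers. The deposited table of the series holds log10 ratios of Cy5 (K14-caSmad1) over Cy3 (wild type) that differ from the ratio of the processed signals by at most 0.00397. RNA was amplified in 1 round, per the labels' protocols; amplification can shift levels between transcripts and favour their 3' ends. Background was corrected with limma 3.58.1 (R 4.3.3), normexp with offset 50, leaving out 36 spots with a non-uniform background on replicate 1. Loess (span 0.3, control weight 0) normalized each array, spots of a probe were averaged, and a probe was tested if well above background on both arrays in at least 1 channel. No gene spot was saturated (0). A gene with several tested probes is represented by the brightest. Lists and families were counted without a set test. "At least N-fold" compares the bright channel with the higher of the dim probe's signal and the lowest signal well above background. Printed intensities are after loess and Aquantile, in arbitrary units; the number of arrays limits precision. Names came from RefSeq (GRCm38.p6): 24844 probes by accession, 6045 by symbol, 1810 by synonym, and 8475 kept the file's name. Genes were named by rule: all members, the 5 highest and lowest of each p63 target list, and in other lists those past 2-fold and the extremes; other probes of named genes were added after their values were seen, and some genes the rule takes are not reported here. The members and lists were chosen with earlier results of these data known.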

Additional observations from a re-analysis of the deposited data

How the results depend on the processing

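All 11 tested member probes kept the sign of their mean log2 ratio under every one of 11 settings. Aquantile and the changes of detection filter left every ratio of a tested probe as reported, so these settings could not change a sign. The deposited ratios nearly repeat the processed signals and are not a separate check. The member probes past 2-fold numbered 5 with the processed signals of the scanner and with the deposited log10 ratios, where Trp63 A_52_P338796 (-1.14) and Tfap2a (-1.19) passed. They numbered 4 with median centring, where Tfap2c passed (1.14), and 4 with offset 16 and without replicate 2, where Tfap2a passed (-1.04 and -1.01). Sfn A_51_P213940 fell under the threshold on 1 array with normexp fitted on all spots (-1.5). The difference between the Trp63 probes was 2.35 without background subtraction, 2.88 with processed signals or deposited ratios, 2.29 with normexp on all spots, 2.49 with offset 16 and 2.45 with median centring. All probes called numbered 4130 with processed signals, 4125 with deposited ratios and 879 with normexp on all spots, which left 3732 past limma's threshold; without a detection filter 24812 passed it. Median centring moved the median of all probes to 0.23 and the share of higher calls to 57.7%, against 28.6% as reported. The median of p63 adhesion targets was 0.65 without background subtraction, 0.83 with processed signals, 0.84 with deposited ratios, 0.62 with normexp on all spots or the mean of a gene's probes, 0.96 with median centring and 0.34 without a detection filter. For the p63 regulators it was 0.47 without background subtraction, 0.55 with processed signals or deposited ratios, 0.45 with normexp on all spots or the mean of probes, 0.70 with median centring, and 0.33 with both channels above background or without a filter; 8 of these passed 2-fold with processed signals or deposited ratios, 3 without background subtraction and 2 with normexp on all spots. Leaving out a replicate gave 0.36 to 0.40. The causes were not tested. The ratio within each array already pairs the genotypes, so no further replicate block was fitted.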

Other observations

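Probes of 1 gene also disagreed in sign or size in other genes of the lists, chosen here after their values were seen. Sesn2, a p53 target of the stress response, read 0.07 at its brightest probe and -1.89 at another. Nedd4, a ubiquitin ligase gene, read -0.40 at its brightest probe and 0.99 and 0.63 at probes dim in wild type. Fgfr3 read 0.26 at its brightest probe and 1.34 at another, and Klf6 read 0.01 and 0.73.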
